A study of Mus musculus with 8 samples.

Results

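The 8 genes described here encode proteins of the cell surface by which satellite cells, the resident stem cells of adult skeletal muscle, are recognised or sorted: Vcam1, Cd34, Cxcr4, Calcr, Cdh15, Cd82, Ngfr and Chodl. They were listed by name out of 24980 gene symbols in the table, and all 8 passed the filter on low counts. Their RNA was measured in 4 groups of mouse skeletal myogenic cells with 2 libraries each. TF cells were freshly isolated ESC-derived progenitors sorted from teratomas, the mixed-tissue tumors that pluripotent stem cells form when injected. TE cells were such progenitors grown in culture to passage 8. SF cells were satellite cells freshly isolated from adult muscle, and SE cells were satellite cells grown to the same passage. In the study's procedure the teratomas grew from E14-EGFP ESCs, a single labeled mouse line, in irradiated and cardiotoxin-injured tibialis anterior muscles of NSG-mdx4Cv mice, which are immunocompromised and lack dystrophin. The sort kept EGFP+ cells without CD31 and CD45 and with alpha7-integrin and VCAM-1 on their surface, so the protein of 1 of the 8 genes helped define TF. The gate used for SF, the strain and age of its donors and any sort of the expanded cells before RNA was taken are not given in the sources used here. Both expanded groups were passaged on gelatin-coated wells in a myogenic expansion medium. The comparisons ask which marker RNAs changed with culture, in which origin, and how the origins differed before and after it.

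Satellite cells rest in quiescence between the muscle fiber and its basement membrane, and leave that state when muscle is injured or when they are placed in culture. Several surface proteins are used to find them because the resting cell carries them: the calcitonin receptor and CD34 mark quiescent cells, VCAM-1 and M-cadherin bind neighboring cells, and CXCR4 receives the chemokine CXCL12. Once activated, the cells enter the cell cycle as myoblasts and part of this surface pattern is known to change.

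Levels are given in CPM, estimated counts scaled to a common library size after TMM normalization, the same scale on which the groups were tested. Library totals were between 11930881 and 21146554 estimated counts, and 7.99% to 21.3% of a library came from ribosomal RNA precursor (Rn45s). No pair of replicates agreed within sampling noise (chi-square per degree of freedom between 11.7 and 87.2), so all 8 libraries were counted as separate samples. The labelled cell type was checked with Pax7, the transcription factor of satellite cells, which lay between 78.2 and 319 CPM in all 8 libraries. Myf5, Myod1, Myog and Des were above 0 in every library, but these myogenic genes were not level between the groups. After culture Pax7 (log2 fold change -1.49 in TE versus TF and -1.38 in SE versus SF) and Myf5 (-3.33 and -3.86) were lower. Des (1.44 and 1.01) and Myod1 (2.68 and 0.63) were higher, the last value short of the threshold used below. Myog was 0.509 and 0.875 CPM in SF, 86.0 and 94.0 in TF and between 263 and 900 in expanded libraries. Markers of other cells were not even between the groups. The summed CPM of 5 fibro-adipogenic markers (Pdgfra, Ly6a, Dcn, Lum, Dpt) was between 1639 and 1684 in TF and between 880.0 and 1483 in SF, but between 1.45 and 7.03 in the expanded libraries. Likewise, 7 endothelial markers summed to between 77.4 and 363 CPM in fresh and between 0.571 and 2.69 in expanded libraries, where Kdr, Emcn and Cldn5 were at 0 throughout. None of either list was at 0 in a fresh library. In the expanded ones 1 to 3 of the 5 fibro-adipogenic and 3 to 5 of the 7 endothelial markers were at 0. Pericyte markers (5 genes) summed to between 552 and 580.0 CPM in fresh and between 95.02 and 159 in expanded libraries. These pericyte genes did not move alike. Rgs5 was at 0 in both TE libraries but at 62.2 and 65.6 CPM in SE, while Kcnj8 was at 0 in all 4 expanded libraries. Cspg4 overlapped between SF (34.2 and 40.0 CPM) and SE (20.6 and 36.5). Pluripotency markers (4 genes) summed to between 8.08 and 25.9 CPM in fresh and between 0.0519 and 0.972 in expanded libraries. The 5 haematopoietic markers summed to 153 CPM in TF replicate 1 and to at most 14.3 in each other library.

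With culture, most of the 8 marker RNAs fell in both origins, from about 2-fold to beyond the limit of detection, and 1 rose. In TE versus TF 1 member was higher and 6 were lower, beside 26.1% of the 17582 genes tested that were called in either direction (9.86% higher, 16.2% lower). In SE versus SF the counts were again 1 higher and 6 lower, where 40.7% of all genes tested were called (20.9% higher, 19.8% lower). A call needed an adjusted p below 0.05 (edgeR, over all genes tested) and a log2 fold change beyond 0.32 in size, the study's threshold. The median log2 fold change of the members was -4.43 in TE versus TF and -1.96 in SE versus SF, against -0.18 and -0.23 over all genes tested. The sizes of the changes were not the same in the origins: of the 6 members with a value in the test of the difference (the interaction, the TE versus TF change minus the SE versus SF change), 1 was called higher and 2 lower, beside 14.3% of all genes tested (4.7% higher, 9.62% lower).

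**Figure D1:**
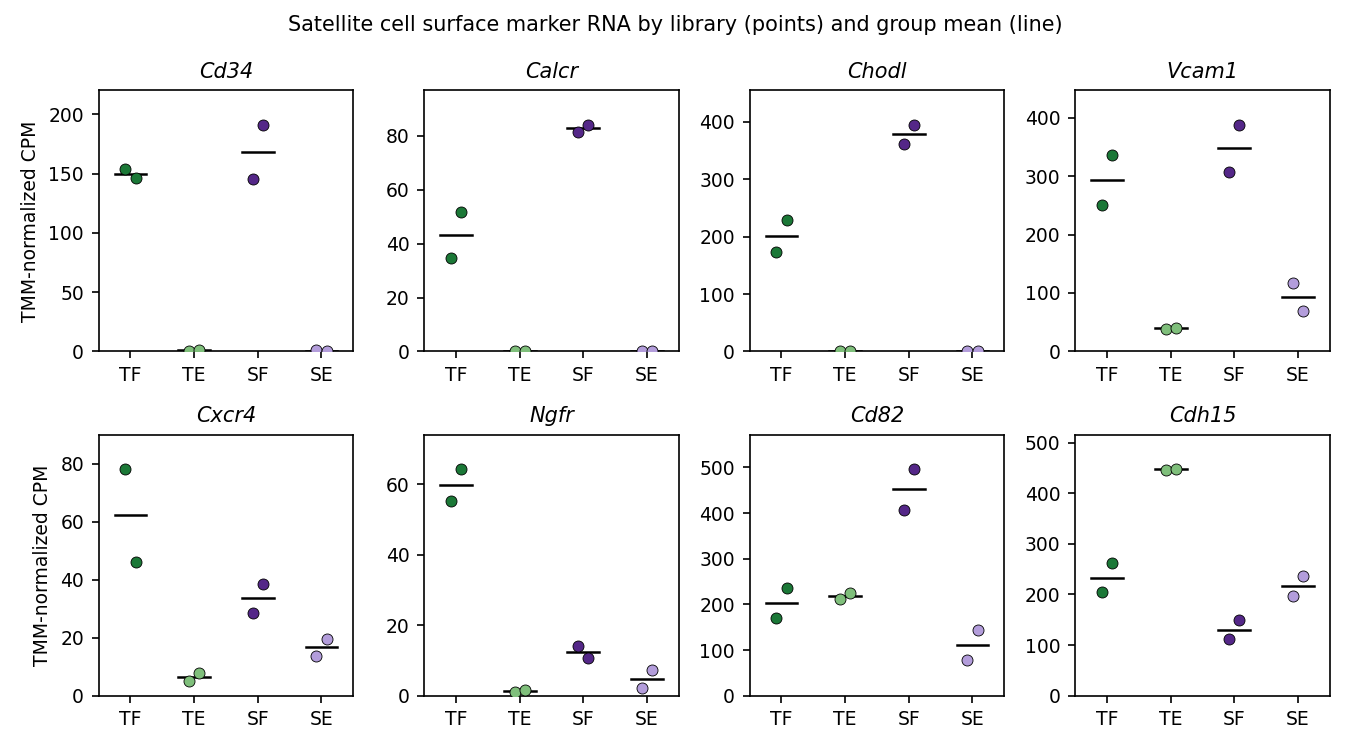
TMM-normalized CPM of the 8 marker genes (vertical axes, each starting at 0) in the groups TF, TE, SF and SE (horizontal axes), with 1 point per library and a line at the mean of 2 libraries. Cd34, Calcr and Chodl lie at or near 0 in all 4 expanded libraries, Cdh15 is highest in TE (446 and 448 CPM), and Cd82 is highest in SF (407 and 497 CPM).

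Calcr, the calcitonin receptor, had 34.6 and 51.9 CPM in the TF replicates and 81.6 and 84.3 CPM in the SF replicates. It was listed at 0 counts in all 4 expanded libraries. Every fresh library therefore lay above every expanded one. With 3 counts per library taken as the limit that a count of 0 allows, Calcr was at least 282-fold lower in TE than in TF and at least 530-fold lower in SE than in SF. These limits cover counting error only.

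Chodl encodes chondrolectin, a membrane protein with a C-type lectin domain that is among the genes enriched in quiescent satellite cells. Its level was 174 and 229 CPM in TF and 362 and 395 CPM in SF. In TE it had 0 counts in replicate 1 and 3 counts in replicate 2, and in SE it was at 0 in both. The fall in SE was at least 2421-fold against SF. In TE, where 3 counts remained, the ratio of TF to TE was 2632 with an exact 95% counting interval of 900.1 to 12767. Whether the fall of Calcr or Chodl differed between the origins could not be tested, because both expanded groups were at or under the limit of 3 counts.

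Cd34 encodes a sialomucin, a heavily glycosylated surface protein also carried by endothelial cells, blood progenitors and fibro-adipogenic cells. Its level was 154 and 146 CPM in TF and 145 and 191 CPM in SF, and the fresh groups overlapped. In culture it was 0.706 and 0.934 CPM in TE (14 and 18 counts) and 0.943 and 0.229 CPM in SE (20 and 4 counts). The fall was 181-fold in TE versus TF (log2 fold change -7.50, standard error 0.432, adjusted p = 5.19e-06, edgeR) and 273-fold in SE versus SF (log2 fold change -8.09, standard error 0.448, adjusted p = 2.98e-06, edgeR). The size of the fall was not shown to differ between the origins (interaction 0.59 on the log2 scale, 95% interval -0.76 to 1.94). As these are bulk samples, fewer cells of a type and less RNA per cell cannot be told apart, here and for every gene that follows.

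Because Cd34 is no marker of satellite cells alone, its level is plotted against the summed markers of fibro-adipogenic and endothelial cells. All of them were high in the 4 fresh and low in the 4 expanded libraries, and the part of such cells in the fall of Cd34 was not tested. In the TF replicates, endothelial markers summed to 245 and 77.4 CPM and fibro-adipogenic markers to 1684 and 1639 CPM. Cd34 was 154 and 146 CPM in these libraries.

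**Figure D2:**
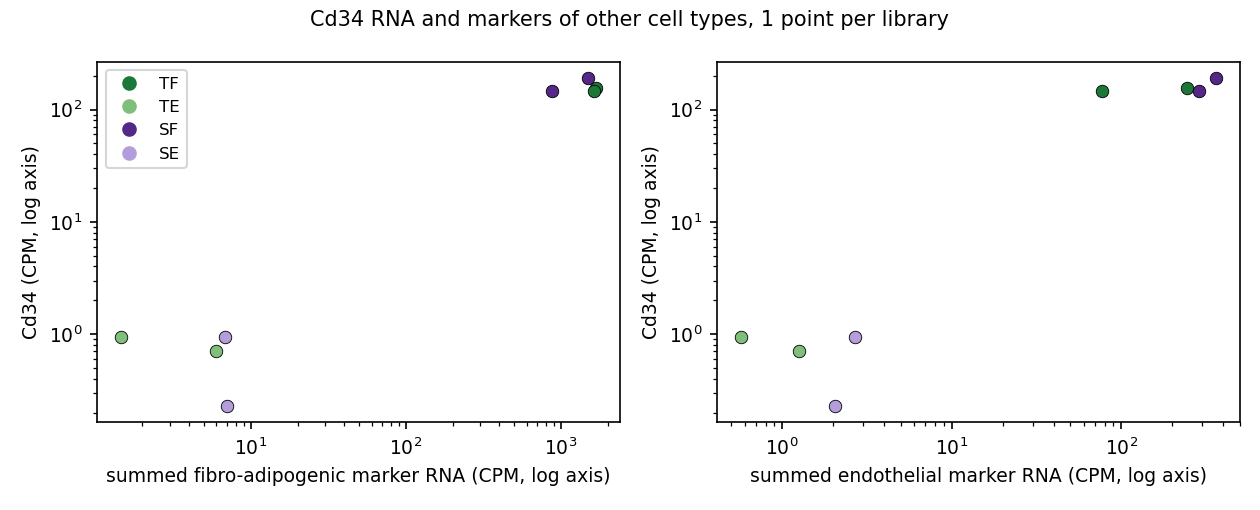
Cd34 (vertical axes, CPM) against the summed CPM of 5 fibro-adipogenic markers (left) and 7 endothelial markers (right), with 1 point per library, colored by group, on log axes. The 4 fresh libraries sit at 145 CPM of Cd34 or more and the 4 expanded ones at 0.943 CPM or less, and both marker sums separate the same libraries.

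The promoters of the 3 genes that were nearly lost in culture are shown because their RNAs moved together. Each line gives the 250 bases before an annotated start in RefSeq (GRCm38.p6), 5′ to 3′ on the gene's strand. Cd34 lies at chr1:194938571-194938820 (plus strand), Calcr start 1 at chr6:3763624-3763873 and start 2 at chr6:3764714-3764963 (minus strand), and Chodl at chr16:78930698-78930947 (plus strand). Capitals mark matches, on either strand, to CAGCTG or CAGGTG, forms of the E-box bound by myogenic factors such as MYOD1, or to TGGGAA, the core of sites bound by RBPJ, the DNA-binding partner of Notch.
Cd34: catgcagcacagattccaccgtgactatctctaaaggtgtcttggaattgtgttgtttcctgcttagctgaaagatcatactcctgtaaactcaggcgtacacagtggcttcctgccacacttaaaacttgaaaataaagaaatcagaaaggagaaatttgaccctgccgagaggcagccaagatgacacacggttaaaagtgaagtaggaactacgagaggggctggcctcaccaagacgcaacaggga
Calcr start 1: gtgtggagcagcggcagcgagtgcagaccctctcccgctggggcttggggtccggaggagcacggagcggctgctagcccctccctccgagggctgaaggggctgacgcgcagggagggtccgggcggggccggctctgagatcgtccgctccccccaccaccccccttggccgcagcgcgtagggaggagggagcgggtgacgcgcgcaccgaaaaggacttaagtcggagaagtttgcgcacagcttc
Calcr start 2: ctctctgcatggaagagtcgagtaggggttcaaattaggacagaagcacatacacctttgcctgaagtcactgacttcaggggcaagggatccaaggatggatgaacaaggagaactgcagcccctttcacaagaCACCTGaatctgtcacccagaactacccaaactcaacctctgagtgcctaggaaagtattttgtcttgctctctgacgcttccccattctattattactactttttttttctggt
Chodl: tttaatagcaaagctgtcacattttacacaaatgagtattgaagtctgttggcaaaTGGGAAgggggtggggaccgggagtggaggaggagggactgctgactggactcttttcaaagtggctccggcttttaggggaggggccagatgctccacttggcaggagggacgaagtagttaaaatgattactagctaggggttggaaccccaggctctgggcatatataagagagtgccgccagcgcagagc
Of the 7 members with an entry, only those named next held a match in these windows. Calcr start 2 held CAGGTG, read on the other strand, 115 bases before the start, and Chodl held TGGGAA 194 bases before its start. The remaining matches were CAGCTG at 25 bases before the Ngfr start and CAGGTG at 2 of the 4 Cd82 starts. Of 32851 promoter windows of this length, 13% held CAGCTG, 17.22% CAGGTG and 21.59% TGGGAA, so single matches are common. The letters CG stood next to each other 24 times before Calcr start 1 and 2 times before start 2, against 6 times before Cd34, 5 before Chodl and a median of 6 over all windows. The 3 genes shared none of the motifs searched, and of their 4 starts Calcr start 1 had the most CG pairs before it.

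Vcam1 encodes an immunoglobulin-family adhesion protein that binds alpha4-integrin. It stood at 250 and 337 CPM in TF, 39.1 and 40.4 in TE, 307 and 388 in SF and 118 and 69.1 in SE. In both origins the fresh and expanded libraries did not overlap, and TE was the lowest group. The log2 fold change of Vcam1 was -2.88 in TE versus TF (standard error 0.288, adjusted p = 0.0001, edgeR) and -1.90 in SE versus SF (standard error 0.277, adjusted p = 0.000567). The RNA thus remained at 39.7 ± 0.912 CPM (SD, n = 2) in TE and 93.4 ± 34.4 CPM in SE, levels above those of 75.1% and 89.2% of the genes tested. TE was lower than SE (log2 fold change -1.23, standard error 0.274, adjusted p = 0.0256). That call was lost without TE replicate 1 (adjusted p = 0.143), TE replicate 2 (0.126) or SE replicate 1 (0.0847), and with only the 2 groups in the fit (0.0536). The fresh groups were not shown to differ (log2 fold change TF versus SF -0.24, 95% interval -0.85 to 0.37), with the limit that TF cells had been sorted for the VCAM-1 protein. The larger fall in the teratoma-derived cells did not pass the test of the difference (interaction -0.99, standard error 0.381, adjusted p = 0.119), but did without SE replicate 2 (-1.33, adjusted p = 0.00888) and with no filter on low counts (adjusted p = 0.0219). Fibro-adipogenic and endothelial cells can also express Vcam1, and their part in these differences was not tested.

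Among the integrin chains that bind VCAM-1, Itga9, which encodes alpha9, fell with culture in both origins (log2 fold change -2.003 in TE versus TF and -1.37 in SE versus SF). Itga4, the alpha4 chain, was not called in either (-1.54 and -1.57). Its SF replicates lay far apart (271 and 34.7 CPM), with SE between them (50.2 and 52.9 CPM). In teratoma-derived cells it had 37.0 and 44.2 CPM in TF and 17.4 and 10.4 CPM in TE. Itgb1, the beta1 chain shared by many integrins, rose in SE versus SF (0.70, adjusted p = 0.0152) and was not called in TE versus TF (-0.38), and the difference between the origins was called (interaction -1.08, adjusted p = 0.0256).

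Cxcr4 encodes the receptor of the chemokine CXCL12, which guides the migration of many cells. Its level was 78.3 and 46.3 CPM in TF, 5.09 and 7.84 in TE, 28.6 and 38.5 in SF and 13.9 and 19.6 in SE. The fresh libraries were higher than the expanded ones of their origin without overlap. The fall was 9.63-fold in TE versus TF (log2 fold change -3.27, standard error 0.379, adjusted p = 0.000246) and 2.01-fold in SE versus SF (-1.01, standard error 0.350, adjusted p = 0.0440). The second call rests on single libraries, since it was lost without SF replicate 1 (adjusted p = 0.0529), SF replicate 2 (0.177) or SE replicate 1 (0.175), and also against the fold threshold with glmTreat (0.0677) and with only the 2 groups in the fit (0.0591). Culture moved Cxcr4 further in the teratoma-derived cells (interaction -2.26, standard error 0.499, adjusted p = 0.0158), a call lost without TF replicate 1 (-1.83, adjusted p = 0.0558) or TE replicate 1 (-1.97, adjusted p = 0.0564). TF replicate 1, the library with most Cxcr4, also had the highest sum of haematopoietic markers, cells which express Cxcr4. Without TF replicate 1 the log2 fold change in TE versus TF was -2.81. Leaving out 1 library cannot separate haematopoietic cells from other spread between replicates, and their part was not tested.

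The ligand moved unlike between the origins. Cxcl12 was 113 and 85.0 CPM in TF and 2.87 and 2.02 CPM in TE (log2 fold change -5.33, standard error 0.593, adjusted p = 0.000194). In satellite cells it was 113 and 162 CPM in SF and 141 and 39.4 CPM in SE, which overlapped (log2 fold change -0.60, standard error 0.475, adjusted p = 0.323). The difference was called (interaction -4.73, standard error 0.734, adjusted p = 0.00309). Ackr3, the scavenger receptor of the same ligand, fell in both (-3.07 and -3.90), and was lower in TF than in SF (-2.97, adjusted p = 0.000132). Fibro-adipogenic cells are a known source of CXCL12, and their part in its levels was not tested.

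Ngfr encodes p75NTR, the low-affinity receptor of the neurotrophins. It was 55.4 and 64.5 CPM in TF, 0.958 and 1.51 in TE, 14.2 and 10.7 in SF and 2.12 and 7.32 in SE. TF was above every other library, and TE below every other one. The fall in TE versus TF was 48.4-fold (log2 fold change -5.60, standard error 0.610, adjusted p = 0.000174). In SE versus SF the log2 fold change was -1.41 (standard error 0.512) and missed the threshold (adjusted p = 0.0515), although it passed in 7 of 14 alternatives, among them without SE replicate 2, the higher SE library (-2.54, adjusted p = 0.000792), TE replicate 1 (adjusted p = 0.0438) or TE replicate 2 (0.0434). The effect of culture differed between the origins (interaction -4.19, standard error 0.753, adjusted p = 0.00621). Before culture Ngfr was 4.80-fold higher in TF than in SF (log2 fold change 2.26, standard error 0.512, adjusted p = 0.0118). Schwann cells carry p75NTR as well: their 4 markers summed to 12.03 and 11.7 CPM in TF, 63.9 and 55.5 in SF and between 2.28 and 4.46 in the expanded libraries, so the group with more Ngfr had the lower Schwann sum. The part of other cells in the Ngfr difference was not tested.

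Co-receptors of p75NTR fell in both origins. Ntrk2, which encodes TrkB, had log2 fold changes of -4.82 in TE versus TF and -3.24 in SE versus SF, and the interaction was called (-1.57, adjusted p = 0.0176). Ntrk3, which encodes TrkC, had 279 and 233 counts in TF, 1 and 3 in TE, 70 and 156 in SF and none in SE, which gives a TF to TE ratio of 204.9 (exact 95% counting interval 79.5 to 755) and a fall of at least 49.8-fold in SE. Of the ligands, Bdnf fell in TE versus TF, while Ntf3 was not called in either origin. Sort1, another partner of p75NTR, was not called in either (0.12 and 0.84).

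Cd82 encodes a tetraspanin, a scaffold protein that organizes integrins in the membrane. Culture moved it in 1 origin and not detectably in the other. Teratoma-derived cells had 169 and 236 CPM in TF and 212 and 224 CPM in TE, with TE inside the range of TF. Satellite cells had 407 and 497 CPM in SF but 78.4 and 144 CPM in SE. Cd82 thus fell 4.07-fold in SE versus SF (log2 fold change -2.02, standard error 0.297, adjusted p = 0.000586), while TE versus TF gave 0.11 on the log2 scale (standard error 0.287, 95% interval -0.55 to 0.76, adjusted p = 0.817). The difference between these effects was called (interaction 2.13, standard error 0.410, adjusted p = 0.00831). SF was the highest group, above TF (log2 fold change TF versus SF -1.16, adjusted p = 0.0184, lost without TF replicate 1 at 0.117 or SF replicate 2 at 0.0563). TE was not called against SE (0.97, 95% interval 0.31 to 1.63, adjusted p = 0.0798), a value that passed without SE replicate 2 (1.48, adjusted p = 0.00234). With DESeq2 it passed too (adjusted p = 0.0139).

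Of 4 integrins and tetraspanins known to join CD82, Itga3, the alpha3 chain, rose in both origins (2.13 and 2.71), and Cd9 fell in both (-0.91 and -0.96). Cd81 and Cd151 rose in SE versus SF (0.76 and 1.07) and were not called in TE versus TF (-0.18 and 0.48).

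Cdh15 encodes M-cadherin, which holds satellite cells to the fiber and myoblasts to each other. Alone among the 8, it was higher after culture: 204 and 262 CPM in TF against 446 and 448 in TE, and 111 and 150 CPM in SF against 197 and 237 in SE. Neither origin overlapped between fresh and expanded, and the TE replicates were nearly equal. The log2 fold change was 0.94 in TE versus TF (standard error 0.216, adjusted p = 0.0109) and 0.73 in SE versus SF (standard error 0.216, adjusted p = 0.0221), with no difference of effects shown (interaction 0.21, 95% interval -0.49 to 0.90). The first call was lost without TF replicate 1 (0.79, adjusted p = 0.107), TE replicate 1 (0.0593) or TE replicate 2 (0.0627), and the second without SF replicate 1 (0.54, adjusted p = 0.111) or SE replicate 2 (0.0680), with median-ratio scaling (0.0588) and with glmTreat (0.0517). TE exceeded SE (log2 fold change 1.04, standard error 0.216, adjusted p = 0.0192; lost without TE replicate 1 at 0.104, TE replicate 2 at 0.115 or SE replicate 1 at 0.0537). TF and SE were not shown to differ (0.10, 95% interval -0.39 to 0.59).

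Of the catenins, which tie cadherins to the actin skeleton, Ctnna1 rose in both origins (0.99 and 0.90) and Jup, plakoglobin, fell in both (-1.31 and -2.92). Ctnnb1, beta-catenin, rose in SE versus SF (0.70), and Ctnnd1 was called in neither.

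**Figure D3:**
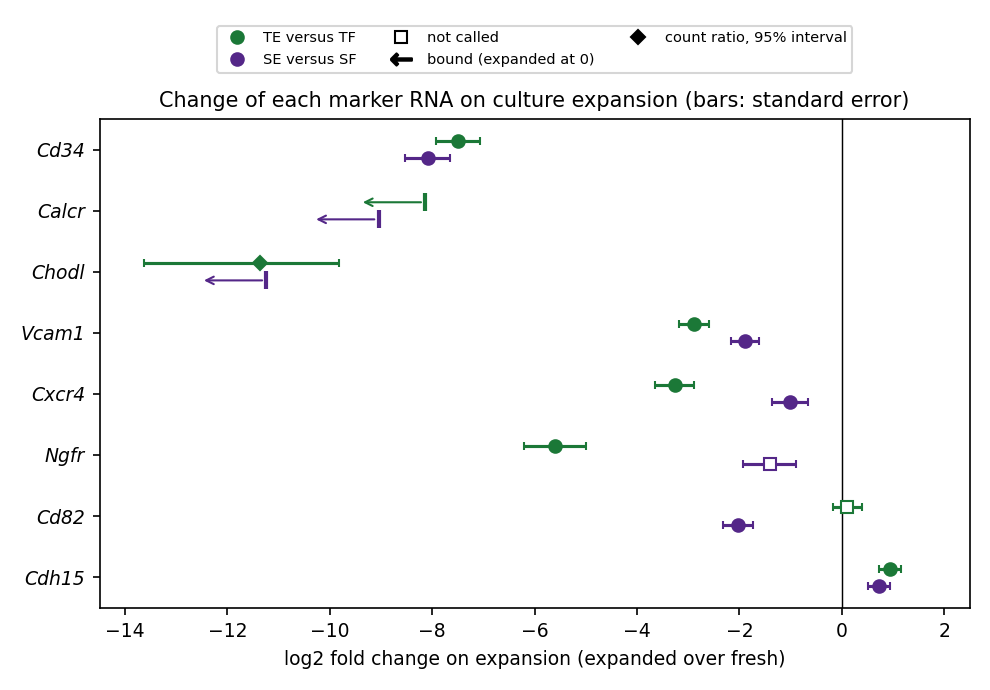
Log2 fold change of each marker with culture (horizontal axis, expanded over fresh) in teratoma-derived cells (green) and satellite cells (purple), with bars of 1 standard error, open squares where the change was not called, arrows for lower bounds and a diamond with its 95% counting interval. Cdh15 alone lies right of 0 in both, and Cd82, Ngfr and Cxcr4 are the pairs whose difference was called.

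Before culture, the origins differed in 5 of the 8 members. In TF versus SF 2 were higher and 3 lower, beside 24.2% of the genes tested (15.1% higher, 9.13% lower). Ngfr and Cdh15 were higher in TF, Cdh15 by a log2 difference of 0.84 (standard error 0.216, adjusted p = 0.0208). Cd82, Calcr and Chodl were lower in TF, with log2 fold changes of -0.94 for Calcr (standard error 0.286, adjusted p = 0.0496) and -0.91 for Chodl (standard error 0.274, adjusted p = 0.0421). The Calcr and Chodl calls were lost without TF replicate 1 (adjusted p = 0.279 and 0.231), TF replicate 2 (0.0583 and 0.0716), SF replicate 1 (0.134 and 0.0832) or SF replicate 2 (0.142 and 0.0999), and Calcr also without TE replicate 1 (0.0579) or TE replicate 2 (0.0578). Cdh15 was lost without TF replicate 2 (adjusted p = 0.187) or SF replicate 1 (0.107). Cxcr4 was 1.85-fold higher in TF and not called (95% interval 0.10 to 1.68 on the log2 scale, adjusted p = 0.0916), though it passed without SE replicate 1 (adjusted p = 0.0487). Cd34 was not called either (-0.17, 95% interval -0.86 to 0.52). Over the 14 alternatives of every kind, not left-out libraries alone, the call was lost in 7 for Calcr, 5 for Chodl and 3 for Cdh15. It was lost in 2 for Cd82 and 0 for Ngfr.

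After culture, TE and SE were compared. In TE versus SE, of 6 members above the limit of detection, 1 was higher (Cdh15) and 1 lower (Vcam1), beside 7.21% of all genes tested (3.15% higher, 4.07% lower). Both were lost without TE replicate 1 or TE replicate 2, leaving 0 calls. Cxcr4 (-1.37, standard error 0.359, adjusted p = 0.0503) and Ngfr (-1.92, standard error 0.554, adjusted p = 0.0715) were lower in TE by values that missed the threshold, and both passed with DESeq2 (adjusted p = 0.0109 and 0.0166) and without SE replicate 1 (0.0174 and 0.00103). Cxcr4 passed as well without TF replicate 1 (0.0402), TF replicate 2 (0.0360) or SF replicate 2 (0.0381). Cd34 was 0.820 ± 0.161 CPM in TE and 0.586 ± 0.505 CPM in SE (SD, n = 2), and the interval of the difference was wide (0.42, 95% interval -0.74 to 1.58).

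Against the other origin in the other state, TF versus SE had 6 members higher and 0 lower, beside 23.6% of all genes tested (14.5% higher, 9.16% lower). Cd34 was 243-fold higher in TF, Calcr at least 276-fold and Chodl at least 1286-fold, while Ngfr, Cxcr4 and Vcam1 were 12.8-fold, 3.72-fold and 3.14-fold higher. Cd82 was higher in TF by 0.87 on the log2 scale and missed the threshold (adjusted p = 0.0560, edgeR). It passed in 6 of 14 alternatives, among them without SE replicate 2 (log2 fold change 1.37) or SF replicate 2. In TE versus SF all 8 were called, 7 lower and Cdh15 higher (1.78, standard error 0.221, adjusted p = 0.000204), beside 46.6% of all genes tested (23% higher, 23.6% lower). Cd82 was the weakest of these (-1.05, adjusted p = 0.0148), and was lost without TE replicate 1 (0.0831), TE replicate 2 (0.0635) or SF replicate 2 (0.0527). These comparisons share their libraries with those above, so their counts are not independent of them.

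The order of the group means differed between members. Cd34, Calcr, Chodl and Vcam1 were highest in SF and next in TF, with no called difference between these neighbors for Cd34 and Vcam1. Cxcr4 and Ngfr were highest in TF, then SF, SE and TE. Cd82 ran SF, TE, TF, SE, where TE and TF did not differ beyond their spread. Cdh15 ran TE, TF, SE, SF, where TF and SE did not. The orders were the same in all 8 members when counts were divided by median-ratio size factors.

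Levels were compared between genes per kilobase of transcript (the median length of the annotated coding transcripts). Cd82 was the most abundant member in TF, at 121 CPM per kilobase, and in SF, at 271. Chodl came next in both (112 and 210 CPM per kilobase), then Vcam1 (97.8 and 116). After culture Cdh15 led in TE (138 CPM per kilobase) and SE (66.9), with Cd82 beside it (131 and 66.5) and Vcam1 next (13.2 and 31.1). On this scale Chodl passed from near the top to the limit of detection. Calcr reached that limit from a low level (12.3 in TF, where it was the lowest member, and 23.6 in SF). Ngfr was the lowest member in SF (3.62 CPM per kilobase).

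Across the 8 libraries, Calcr and Chodl had the most similar patterns of any 2 members (Pearson r = 0.999 of log2(CPM + 1)), and each was the other's closest match among 11468 genes with a mean of at least 5 CPM. Cd34 followed Fosb, Apod and Thbs4 most closely (r between 0.998 and 0.999). Nectin1 and Kitl were among the closest genes to Vcam1 (r = 0.992 and 0.991). The closest genes to Cxcr4 were Mxi1, Gm2a and Fgfr2 (0.979 to 0.987), and those to Ngfr were Tnfrsf19, Lox and Col15a1 (0.986 to 0.988). Cdh15 was closest to Ndufb2, Rab40c and Smg5 (0.984 to 0.993), and Cd82 to Dusp8, Gmeb2 and Tns2 (0.964 to 0.984). After Chodl, Calcr was closest to Dnajb1 and Gbp2 (both 0.998), and after Calcr, Chodl was closest to Iigp1 and Dnajb1 (both 0.998). Within the members, Cdh15 had negative coefficients with all the others (-0.31 with Cd82 to -0.81 with Vcam1), and Cd82 was weakly tied to Cxcr4 (0.24) and Ngfr (0.25). The 8 points fall into fresh and expanded libraries and share library depth, so these coefficients are descriptions without a test.

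The ligands and binding partners of the members, 30 genes listed by marker, moved with culture in both directions, and more were lower than higher. In TE versus TF 2 were higher and 14 lower, beside 9.86% higher and 16.2% lower of all genes tested (median log2 fold change -2.01, all genes tested -0.18). In SE versus SF 6 were higher and 11 lower, beside 20.9% and 19.8% of all genes tested (median -0.78, all genes tested -0.23). Ramp2, which encodes a receptor activity-modifying protein, fell in both origins (-5.03 and -5.49), and Ramp1 was not called in either origin. The chains of collagen V, a ligand reported for the calcitonin receptor, fell for Col5a1 (-2.76 and -1.17) and Col5a3 (-3.76 and -3.39), whereas Col5a2 fell in TE versus TF (-2.43) and was not called in SE versus SF (0.03). Podxl, a sialomucin related to CD34, fell in both (-4.13 and -2.67). Col5a1 and Col5a2 are also made by fibro-adipogenic cells, whose markers were low in culture as well, and their part was not tested.

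Between origins, 7 partners were higher and 1 lower in TF versus SF (all genes tested 15.1% and 9.13%), the strongest being Ackr3 (-2.97), Podxl2 (2.49) and Col5a2 (2.42). In TE versus SE 1 was higher and 3 lower (all genes tested 3.15% and 4.07%), with Cxcl12 (-5.20), Ackr3 (-2.14) and Ntrk2 (-1.36) the largest. In TF versus SE 10 were higher and 2 lower (all genes tested 14.5% and 9.16%), led by Ntrk3 (at least 134-fold), Ramp2 (6.46) and Podxl2 (3.60). In TE versus SF 5 were higher and 13 lower (all genes tested 23% and 23.6%), led by Ntrk3 (SF to TE ratio 77.2, counting interval 29.7 to 286), Ackr3 (-6.04) and Cxcl12 (-5.81). The interaction was called for 7 partners, 1 higher and 6 lower (all genes tested 4.7% and 9.62%), led by Cxcl12 (-4.73), Col5a2 (-2.46) and Jup (1.60).

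**Figure D4:**
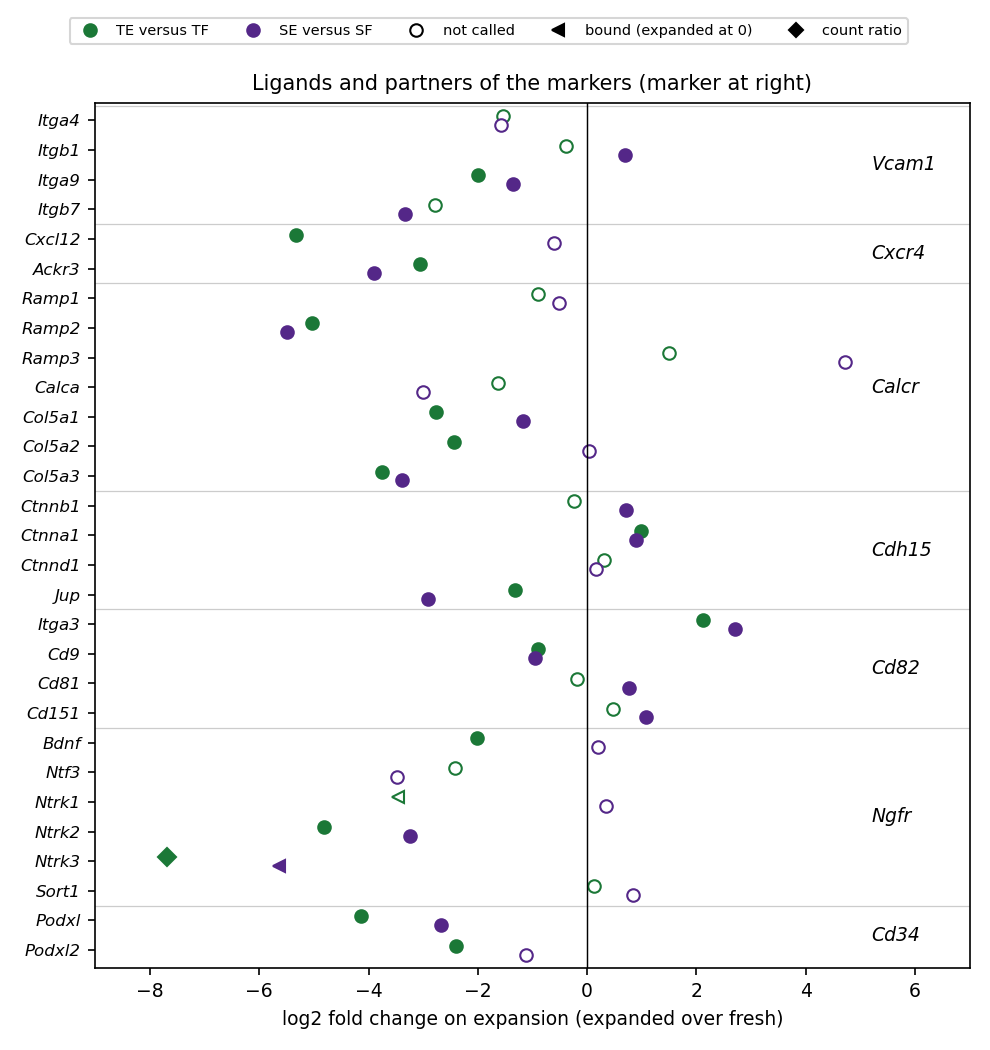
Log2 fold change with culture (horizontal axis, expanded over fresh) of 29 of the 30 ligands and partners, grouped by marker, in teratoma-derived cells (green) and satellite cells (purple). Filled symbols passed the test, triangles are lower bounds where expanded libraries were at 0, and the diamond is a ratio of counts. Cxcl12 fell in teratoma-derived cells (-5.33) and was not called in satellite cells (-0.60).

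Among 14 other surface genes of satellite cells and myoblasts, levels moved in both directions with culture, with 4 higher and 6 lower in TE versus TF and 6 higher and 6 lower in SE versus SF. Over all genes tested these shares were 9.86% higher and 16.2% lower in TE versus TF, and 20.9% and 19.8% in SE versus SF. Adgrf5, an adhesion G protein-coupled receptor also found on endothelial cells, fell in TE versus TF (-7.16). In SE it had 0 and 1 count, which gives an SF to SE ratio of 5166 (counting interval 926.6 to 204100). Tenm4, a teneurin, fell in both origins (-4.12 and -4.79), as did Cav1, which encodes caveolin-1 (-3.15 and -4.08). Cdh2, N-cadherin, rose in both (1.23 and 4.21), and so did Erbb3, a neuregulin receptor (3.02 and 3.86), and Ncam1, a cell adhesion molecule of myoblasts (1.10 and 1.46). Itga7, the chain on which TF was gated, rose in TE versus TF (0.89, adjusted p = 0.0362) and was not called in SE versus SF (0.68, adjusted p = 0.0679).

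A few of these genes moved in opposite directions in the origins. Sdc3, which encodes the proteoglycan syndecan-3, fell in TE versus TF (-1.06) and rose in SE versus SF (2.14), with a called interaction of -3.20. Met, the receptor of hepatocyte growth factor, fell in TE versus TF (-1.63) and rose in SE versus SF (0.89), with an interaction of -2.52. Among the 14 genes the interaction was called higher for 2 and lower for 3, beside 4.7% and 9.62% of all genes tested. Cdh2, which rose in both origins, was among the lower ones (-2.97). In TF versus SF the largest called differences were Sdc4 (-2.79), Sdc3 (1.98) and Adgrf5 (-1.97). In TE versus SE they were Sdc3 (-1.22), Met (-1.20) and Sdc4 (-1.16). There, 0 of the 14 were called higher and 5 lower (all genes tested 3.15% and 4.07%). With only the 2 groups in the fit, 0 were higher and 2 lower, beside 442 and 573 of 14193 genes tested. These 5 calls were lost without TE replicate 1 or TE replicate 2. The median log2 fold change of the 14 genes was then -0.24 and -0.32, against -0.29 with all libraries. In TE versus SF the largest were Adgrf5 (-9.13), Erbb3 (4.42) and Tenm4 (-3.89). TF exceeded SE in Adgrf5 (ratio 1298, counting interval 232 to 51317), Tenm4 (5.01) and Cav1 (3.87).

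The members lie on 7 chromosomes of GRCm38 (GENCODE M21), with Cd34 and Cxcr4 both on chromosome 1. Vcam1 is at chr3:116109949-116129688 (minus strand), Cd34 at chr1:194938819-194961279 (plus), Cxcr4 at chr1:128588199-128592293 (minus) and Calcr at chr6:3685680-3764714 (minus). Cdh15 is at chr8:122847966-122867397 (plus), Cd82 at chr2:93419111-93463140 (minus), Ngfr at chr11:95568818-95587735 (minus) and Chodl at chr16:78930948-78951733 (plus). Calcr hosts the microRNAs Mir489 and Mir653 on its own strand. The annotation puts antisense or opposite-strand RNAs across Vcam1 (Gm43109), Cd34 (Gm16897) and Cd82 (Gm10804), and a gene on the same strand across Cdh15 (Gm20388). The strand setting of the counting is not given in the sources used here, so reads of these overlapping pairs cannot be told apart with certainty.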

How the data were processed

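RNA of 8 libraries (TF, TE, SF and SE, n = 2 each) was read from both ends after preparation with the SMARTer stranded kit for small amounts of total RNA. The authors deposited 1 table of estimated counts per gene symbol, not normalized and not all whole, as programs give that share reads between transcripts. The submitters' processing notes name CASAVA, kallisto 0.44.0, GRCm38 and mm10, and the role of each is not given in the sources used here. Groups and replicate numbers came from the sample labels. The study calls the replicates biological, and whether they came from separate teratomas, animals or cultures is not given in the sources used here, so p-values measure only the spread between these libraries.

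After rounding, filterByExpr kept 17582 of 24980 genes. Libraries were scaled by TMM, and a quasi-likelihood model (edgeR 4.0.16, R 4.3.3) was fitted once to all 4 groups, with Benjamini-Hochberg adjustment over all genes tested. Standard errors are the log2 fold change divided by the square root of F. A group whose libraries each had at most 3 counts was taken as at the limit of detection, and where both groups were, no fold was given. Alternatives were DESeq2 1.42.0, scaling by median-ratio size factors, leaving out the filter on low counts, fitting only the 2 groups compared, a replicate block, glmTreat and each library left out. Lists covered the members, their partners, other surface genes, myogenic, endothelial, haematopoietic, fibro-adipogenic, Schwann, pericyte and pluripotency markers. Named were all members, the 3 genes most like each, the 3 list genes with the largest called changes in each comparison, and partners of members described. A few genes that this rule or the lists give are not reported here. Members and lists were chosen with earlier results of these data known. Promoter windows are from RefSeq (GRCm38.p6; 7 of 8 members had an entry), and loci from GENCODE M21. The study's protein and engraftment measurements were not analysed here.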

Additional observations from a re-analysis of the deposited data

Results flagged for a closer look

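For 3 of the 8 marker genes the effect of culture differed between the origins by the test of the difference itself (TE versus TF minus SE versus SF, log2 scale, edgeR). The largest was Ngfr at -4.19 (adjusted p = 0.00621), where both TE libraries were below both SE libraries and both TF libraries above both SF libraries. Cxcr4 gave -2.26 (adjusted p = 0.0158), with the same order of libraries. Cd82 gave 2.13 (adjusted p = 0.00831), with both SE libraries below both SF libraries and the TE libraries inside the range of TF. All 3 kept their direction in every alternative run. Ngfr and Cd82 also kept their call in every one, while Cxcr4 was lost without TF replicate 1 (adjusted p = 0.0558) and without TE replicate 1 (adjusted p = 0.0564).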

How the results depend on the processing

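With 2 libraries per group, single libraries decided several calls. Of 52 values of a member in a comparison, 38 were called, of which 27 were called in every alternative and 11 were lost in some, and 7 of the 14 not called passed in some. In TF versus SF, 5 members were called, 3 with glmTreat and between 2 and 6 with each library left out. In TE versus SE, 2 were called, 5 with no filter on low counts, 5 with DESeq2, 1 with only the 2 groups in the fit and between 0 and 3 with each library left out. In the other comparisons every alternative stayed within 1.5 times of the count reported. Directions turned for 6 values near 0, none of them called, when libraries were left out. Over the left-out libraries, Cd82 in TE versus TF ran from -0.0931 (without TF replicate 1) to 0.40, Cd34 in TF versus SF from -0.37 to 0.0615 (without SF replicate 2), and Cd34 in TE versus SE from -0.20 (without SE replicate 2) to 1.81. Cdh15 in TF versus SE ran from -0.12 (without TF replicate 2; -0.0447 without SE replicate 1) to 0.26. In the interaction Cd34 ran from -0.0426 (without SE replicate 2) to 1.98 and Cdh15 from -0.0395 (without SF replicate 2) to 0.43. The cause of these changes was not tested, beyond the fewer libraries in the fit.

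The replicate numbers showed no sign of pairing the libraries (correlation of same-numbered deviations between -0.023 and 0.026 over the 6 pairs of groups). Such values cannot exclude that same-numbered libraries shared a source. The fit with a replicate block is given only here. It called 7 members in TE versus TF, 8 in SE versus SF, 5 in TF versus SF and 3 in TE versus SE. In TF versus SE it called 7, in TE versus SF 8 and in the interaction 3. Median-ratio scaling moved the median log2 fold change of all genes from -0.23 to -0.43 in SE versus SF, from 0.08 to -0.08 in TF versus SF, from -0.33 to -0.55 in TE versus SF and from -0.18 to -0.04 in the interaction, and turned no member's direction. Depth limits the genes near 0: for Calcr and Chodl in culture, only bounds and counting intervals can be given.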
